A study of Mus musculus with 9 samples.

Results

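The liver X receptors (LXRs) and genes of cholesterol efflux and storage linked to them were followed in RAW-Blue cells, a mouse macrophage line. The set was fixed by gene symbol and holds 10 of the 50600 genes in the deposited tables. It comprises the receptor genes Nr1h2 and Nr1h3, the efflux transporter genes Abca1 and Abcg1, the apolipoprotein gene Apoe, and Mylip, Smpdl3a, Lpcat3, Soat1 and Plin2. The comparison is between cells stimulated for 24 hours with 1 µg/ml of lipopolysaccharide, the bacterial cell wall component abbreviated LPS (LPS, 3 libraries), and cells left without it (None, 3 libraries). All were RAW-Blue cells of the same source, grown in DMEM with serum and the antibiotics Normocin, Zeocin and penicillin-streptomycin. A further group (LPS-PjELNs, 3 samples), which received Peucedanum japonicum nanovesicles ahead of the LPS, was not analysed here, as its labels match none of the column names. Nothing in the labels says that replicates came from separate cultures, and the p-values cover only the variation among these libraries, which may be technical. RAW-Blue is sold with an integrated reporter gene, and it stands for a single line and not for macrophages of a tissue.

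LXRs are nuclear receptors that sit on DNA with a retinoid X receptor partner and are switched on by oxysterols and by desmosterol, an intermediate of cholesterol synthesis. Active LXR raises the transporters Abca1 and Abcg1, which hand cholesterol to extracellular acceptors, and Mylip, a ubiquitin ligase that removes lipoprotein receptors. In macrophages the pathway is known for unloading excess cholesterol and for restraining inflammatory genes. Signalling from Toll-like receptors such as Tlr4, the LPS receptor, has been described to lower LXR target genes in mouse macrophages.

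The sites that LXR binds are described as direct repeats of the hexamer AGGTCA with a spacer of 4 bases. RefSeq promoter windows (GRCm38.p6, from 250 bases before to 50 after a start) were found for 8 of the 10 genes, 11 windows in all. Abcg1 and Smpdl3a had no entry. Both strands were searched for the repeat, with up to 3 of its 12 hexamer letters different, a limit set after the sequences were seen. One window held a match, that of Abca1, the classic LXR target, at 67 to 52 bases before the start on the opposite strand. Read 5′ to 3′ on that strand it is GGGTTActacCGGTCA, with 3 differing letters and the hexamers in capitals. A match this loose occurred in 21.9% of the 32851 windows in the table, and one with at most 2 differing letters in 3.02%. The exact hexamer, on either strand, occurred in 16.3% of windows, and among the 8 genes with a window only in that of Plin2, at 218 to 213 bases before the start. A match describes letters and is not a measured binding site. The 250 bases before the start of each gene are shown because they hold these matches (Abca1 at chr4:53159896-53160145, minus strand, with the repeat in capitals, and Plin2 at chr4:86670060-86670309, minus strand, with the hexamer in capitals).
Abca1: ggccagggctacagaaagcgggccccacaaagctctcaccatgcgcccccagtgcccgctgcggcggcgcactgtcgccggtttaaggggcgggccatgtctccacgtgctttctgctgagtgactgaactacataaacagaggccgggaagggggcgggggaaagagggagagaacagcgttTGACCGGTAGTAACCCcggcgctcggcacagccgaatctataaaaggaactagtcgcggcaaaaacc
Plin2: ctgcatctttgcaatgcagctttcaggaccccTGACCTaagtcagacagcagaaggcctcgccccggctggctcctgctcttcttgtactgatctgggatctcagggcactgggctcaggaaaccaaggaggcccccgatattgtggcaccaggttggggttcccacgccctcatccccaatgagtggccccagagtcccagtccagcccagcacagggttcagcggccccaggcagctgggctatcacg

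LPS did not move the set as a unit. Expression was lower in LPS for 5 genes (Nr1h3, Abcg1, Apoe, Mylip and Smpdl3a) and higher for 4 (Nr1h2, Abca1, Lpcat3 and Plin2), while Soat1 was not called. How many were called higher depends on the scaling. With library totals 2 were called higher and 6 lower, where 2679 and 6076 of 11916 genes were. On log2(TPM + 1) values 1 and 5 of 9 tested were, where 2672 and 4891 of 11438 genes were. Smpdl3a fell 4.0-fold and Plin2 rose 2.77-fold, the farthest in each direction. All 10 genes passed the filter on low counts and were tested with edgeR's quasi-likelihood test, adjusted over 11916 genes by the Benjamini-Hochberg method with a threshold of 0.05. The response to LPS was broad, and 69.1% of all genes tested were called, 34% higher and 35.1% lower. The 9 of 10 called here are therefore to be read against a background in which most genes were called. Decreases of at least 2-fold were called for 3 of the 10 genes, against 11.8% of all genes tested, and increases of that size for 1, against 11.1%. The median log2 fold change of the 10 genes was -0.29, beside -0.03 over all genes tested. In CPM, counts scaled to library size with TMM factors, the LPS and None libraries did not overlap for 9 of the 10 genes, where 73.6% of all genes tested did not overlap.

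Library totals ran from 14650843 to 15659413 expected counts in LPS and from 17028457 to 17665200 in None. The main axis of variation took up 90.9% of the variance, with LPS and None at its opposite ends. The next took up 3.23% and set LPS replicate 1 apart from the other LPS libraries. Counts on mitochondrially encoded genes made up 2.46% to 2.7% of each LPS library and 3.84% to 4.28% of each None library. All 10 genes listed as a check of the stimulus, among them Nos2 and Il1b, were higher in LPS, with a median log2 fold change of 7.45. The 10 macrophage markers were all detected, with 3 higher and 4 lower in LPS, and Cd68 was at 689 ± 50.9 CPM in LPS and 644 ± 45.8 CPM in None (SD, n = 3 each). Of 34 markers of other cell types, 18 had 0 counts in every library, including Cd3e, Ly6g, Epcam and Col1a2. Their summed level was 17.5 to 19.5 CPM in LPS and 0.672 to 0.775 CPM in None, and most of it in LPS was S100a8, at 15.4 ± 1.6 CPM. Only 2 of the 34 were tested, Cd79a (log2 fold change 2.47) and S100a8 (6.70), and both were higher in LPS. The fibroblast markers summed to 0.577 to 2.56 CPM in LPS and 0 to 0.0543 CPM in None. The epithelial markers summed to 0 CPM in LPS and 0.0543 to 0.155 CPM in None. The part of these markers in the results below was not tested. In RNA from whole cultures, fewer cells that express a gene and less RNA per cell cannot be told apart. Scaling matters for small changes: scaling by library totals alone moved log2 fold changes by a median of -0.26, and TPM values by -0.20. Changes under about that size are read relative to this shift.

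The receptor genes moved in opposite directions. Nr1h2 (chromosome 7, 44549616 to 44553949, GRCm38) encodes LXR-beta and had 104, 85.4 and 94.7 CPM in the LPS libraries, against 79.9, 73.5 and 70.5 CPM in the None libraries. All LPS libraries lay above all None libraries, with the nearest values close together. The log2 fold change of Nr1h2 was 0.34 ± 0.08 (SE, adjusted p 0.00297). This call depends on the scaling: with library totals the log2 fold change was 0.08, and on log2(TPM + 1) it was 0.20, and neither was called. Nr1h3 (chromosome 2, 91184092 to 91195151) encodes LXR-alpha and was far scarcer, with 50, 55 and 49 counts in LPS and 118, 96 and 82 counts in None. Scaled to CPM, Nr1h3 had 3.55, 3.99 and 3.54 in LPS, against 6.40, 4.96 and 4.24 in None. The groups did not overlap, but None replicate 3 lay close to LPS replicate 2. The log2 fold change of Nr1h3 was -0.49 ± 0.19 (adjusted p 0.0350), and the call was lost without LPS replicate 1 (-0.46), LPS replicate 3 (-0.45), None replicate 1 (-0.32) or None replicate 2 (-0.53), with DESeq2 (-0.47) and on unfiltered TPM values (-0.43).

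Nr1h3 made up a small part of the LXR receptor transcripts, and a smaller one in LPS. Per length, in TPM, its share of the summed Nr1h2 and Nr1h3 level was 3.69%, 5.06% and 3.14% in LPS, against 7.0%, 6.14% and 6.15% in None. Each LPS library lay below each None library. The mean share was 3.97% ± 0.991 in LPS and 6.43% ± 0.495 in None (SD, n = 3 each), a difference of -2.47 percentage points. An exact two-sided permutation test over the 6 libraries gave p = 0.1, the smallest value that 3 against 3 libraries allow.

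**Figure D1:**
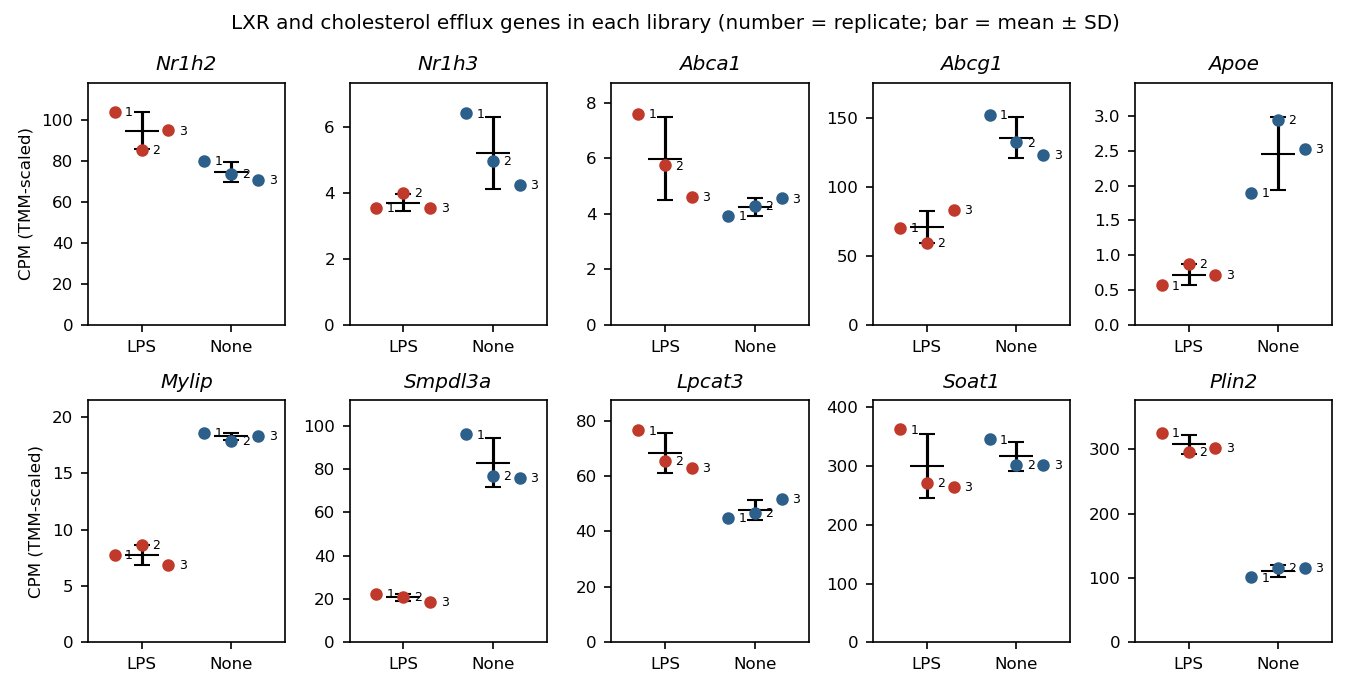
Expression in CPM (TMM-scaled, linear axes from 0) of each gene in the 3 LPS and the 3 None libraries. Points are libraries with their replicate number, and bars give the mean ± SD. Smpdl3a, Mylip, Abcg1 and Apoe lie well below the None values in LPS, Plin2 lies above them (308 against 111 CPM on average), and the Soat1 groups overlap.

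The efflux transporter genes also parted. Abcg1 (chromosome 17, 31057687 to 31117988) encodes the transporter that passes cholesterol to HDL, and it had 70.2, 59.3 and 83.0 CPM in LPS, against 152, 132 and 123 CPM in None. Every LPS library was below every None library by a wide margin. Abcg1 fell 1.91-fold, with a log2 fold change of -0.94 ± 0.11 (adjusted p 1.23e-05), and it stayed between -1.20 and -0.82 and called under all 15 alternatives tried. Abca1 (chromosome 4, 53030787 to 53159895) encodes the transporter that loads lipid-poor apolipoprotein A-I and had the lowest mean TPM of the set in both groups. Its libraries held 107, 79 and 64 counts in LPS and 72, 83 and 88 counts in None, which is 7.60, 5.74 and 4.62 CPM in LPS against 3.91, 4.29 and 4.55 CPM in None. LPS replicate 3 barely exceeded the highest None library, and LPS replicate 1 stood above the rest. The log2 fold change of Abca1 was 0.49 ± 0.19 (adjusted p 0.0351). That call was lost in 5 of the 6 fits that left out a library, whose log2 fold changes ran from 0.28 without LPS replicate 1 to 0.66 without LPS replicate 3. With scaling by library totals the value was 0.23 and with DESeq2 0.52, and neither was called.

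Of the other ABCA and ABCG genes listed, 4 of 7 were tested. Beside the 35.1% of all genes tested that fell, 2 of these fell and none rose. They were Abca2 (-0.62) and Abca3 (-0.58), transporters of endosomes and of lamellar bodies. Scaling by library totals or TPM values gave 3 lower and 0 higher, where 6076 of 11916 and 4891 of 11438 genes fell. The fall of Abca2 was not called on log2(TPM + 1) values without a filter.

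Apoe (chromosome 7, 19696109 to 19699188) encodes apolipoprotein E, a secreted acceptor of cell cholesterol. Although many macrophages make it in quantity, this line held only 8, 12 and 10 counts of Apoe in the LPS libraries, against 35, 57 and 49 counts in the None libraries. In CPM these were 0.568, 0.871 and 0.721 in LPS, against 1.90, 2.95 and 2.53 in None. The groups did not overlap, the highest LPS library holding 12 counts and the lowest None library 35. The log2 fold change of Apoe was -1.77 ± 0.29, a 3.40-fold decrease (adjusted p 0.000158), and the call held under all 15 alternatives, from -2.02 to -1.07. The value of -1.07 comes from log2(TPM + 1), a scale that understates the change of low genes.

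Mylip (chromosome 13, 45389742 to 45412022) encodes the ubiquitin ligase also called IDOL. It had 7.74, 8.64 and 6.85 CPM in LPS, against 18.6, 17.9 and 18.3 CPM in None. The None libraries were nearly identical and the LPS libraries all lay far below them. Mylip fell 2.35-fold, with a log2 fold change of -1.24 ± 0.11 (adjusted p 1.05e-06) and a range of -1.49 to -1.15 over the 15 alternatives. Lrp8, an apolipoprotein E receptor that this ligase marks for destruction, rose 1.73-fold to 50.9 ± 2.24 CPM in LPS, against 29.5 ± 2.91 CPM in None (adjusted p 6.58e-06), and Vldlr had 0 counts in all libraries. The E2 enzymes that serve the ligase did not move together, with Ube2d1 (-0.65) and Ube2d2a (-0.32) lower and Ube2d3 (0.37) higher, the last not called with scaling by library totals (0.11).

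Smpdl3a (chromosome 10, 57794374 to 57811830) encodes a secreted phosphodiesterase of the acid sphingomyelinase family, described as an LXR target in human macrophages. Its level was 22.2, 21.1 and 18.8 CPM in LPS, against 95.9, 76.9 and 75.8 CPM in None. The groups were separated by a wide gap, and the spread within each was small beside it. Smpdl3a had a log2 fold change of -2.0 ± 0.11 (adjusted p 7.71e-09), with -2.26 to -1.88 over the 15 alternatives. Its relatives had log2 fold changes nearer to 0. Among 6 sphingomyelinase genes listed, 5 were tested, 4 were lower and none was higher, where 35.1% of all genes tested were lower. The largest of these falls was Smpd4 at -0.74, followed by Smpd2 (-0.51), the lysosomal enzyme gene Smpd1 (-0.34) and Smpdl3b (-0.28). Whether these falls differ from that of Smpdl3a was not tested.

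Lpcat3 (chromosome 6, 124663027 to 124704418) encodes the enzyme that places polyunsaturated fatty acids into membrane phospholipids. It had 76.4, 65.5 and 63.0 CPM in LPS, against 44.9, 46.7 and 51.8 CPM in None, with no overlap. Lpcat3 rose 1.43-fold, with a log2 fold change of 0.51 ± 0.09 (adjusted p 0.000243). With library totals it was 0.25 and still called, whereas on log2(TPM + 1) it was 0.24 and not called. Exons of Lpcat3 share 334 bases with Emg1 on the opposite strand, which held 1492 to 1769 counts in LPS and 1498 to 1583 counts in None. No source used here gives the strand setting of the counting, and reads in that stretch cannot be told apart. Among 7 other lysophospholipid acyltransferase genes listed, 6 were tested. Lpcat1 (-0.85), Mboat1 (-0.75) and Lclat1 (-0.37) fell and Mboat7 (0.31) rose, where 35.1% of all genes tested fell and 34% rose. Scaling by library totals gave 5 lower and 0 higher for this list, where 6076 and 2679 of 11916 genes were. TPM values gave 3 lower and 0 higher, where 4891 and 2672 of 11438 genes were. The call of Lclat1 was lost without LPS replicate 2, LPS replicate 3 or None replicate 3, with DESeq2 and on unfiltered TPM values.

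**Figure D2:**
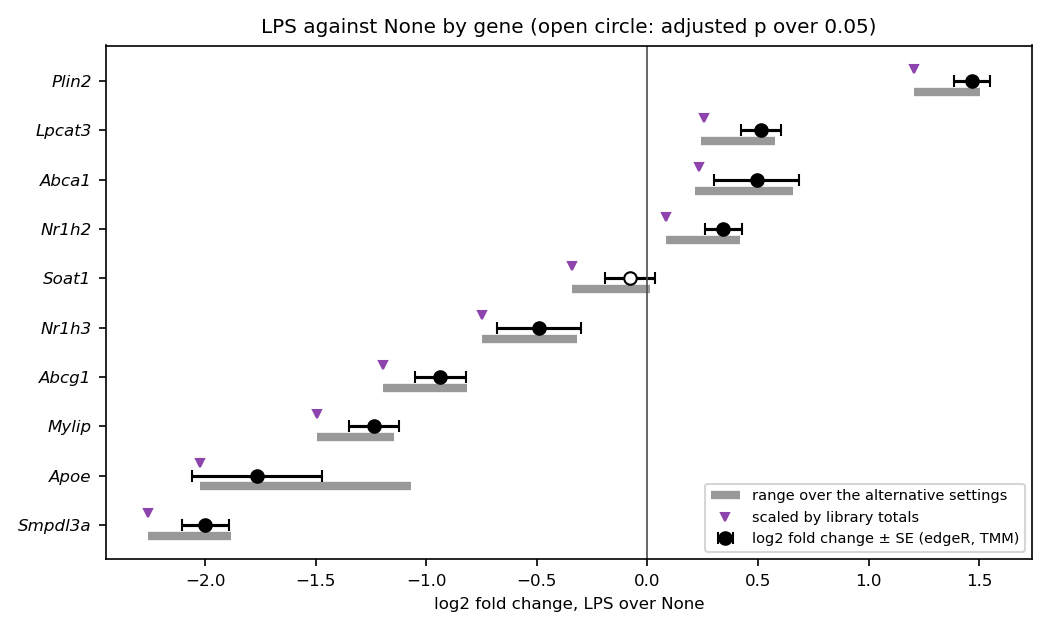
Log2 fold change of LPS over None for each gene with its SE (circles), the range over the alternative settings (grey bars) and the value with scaling by library totals (triangles). Plin2 at the top (1.47) and Smpdl3a at the bottom (-2.0) lie far from 0 under every setting, whereas the grey bars of Nr1h2, Abca1 and Lpcat3 come near 0 and that of Soat1 crosses it.

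Plin2 and Soat1 act in lipid storage. Plin2 (chromosome 4, 86656565 to 86670060) encodes perilipin 2, a coat protein of lipid droplets. Plin2 had 325, 296 and 302 CPM in LPS, against 101, 116 and 116 CPM in None, and every LPS library lay far above every None library. The log2 fold change of Plin2 was 1.47 ± 0.08 (adjusted p 9.50e-09), and it lay between 1.21 and 1.5 over the 15 alternatives. Soat1 (chromosome 1, 156424525 to 156474331) encodes the enzyme that esterifies cholesterol for storage. Soat1 had 362, 272 and 264 CPM in LPS, against 345, 301 and 302 CPM in None. The groups overlapped, since LPS replicate 1 was the highest and the other LPS libraries the lowest. Its log2 fold change was -0.08 ± 0.11 (adjusted p 0.552). It was called lower, at -0.24, without LPS replicate 1, and at -0.34 with scaling by library totals.

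Other cholesterol ester and lipid droplet genes were tested for 12 of 18. Of these 6 rose and 2 fell, where 34% of all genes tested rose and 35.1% fell. The balance of this list depends on the scaling. Library totals gave 3 higher and 4 lower, where 2679 and 6076 of 11916 genes were. TPM values gave 3 higher and 1 lower, where 2672 and 4891 of 11438 genes were. Hilpda, an inhibitor of lipid droplet breakdown, rose 10.2-fold to 121 ± 40.7 CPM in LPS, against 11.8 ± 0.987 CPM in None, and LPS replicate 1 held 168 CPM against 96.3 and 99.0 in the other LPS libraries. Soat2, another cholesterol esterification enzyme, rose 3.03-fold but stayed low, at 4.63 ± 1.02 CPM in LPS and 1.52 ± 0.365 CPM in None. Lipa, the lysosomal acid lipase that frees cholesterol from its esters, fell 2.30-fold to 179 ± 11.6 CPM in LPS, against 412 ± 39.3 CPM in None (adjusted p 1.17e-07). Dgat2 (-1.0) fell as well, a call lost with DESeq2. Nceh1, a neutral cholesterol ester hydrolase, was not called at 0.18, though it was called at 0.28 without None replicate 1.

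In level per length, measured in TPM, the order of the mean levels differed at the top. In LPS, Plin2 (216 ± 9.44 TPM) and Soat1 (185 ± 35.5 TPM) came first. Their ranges overlapped, so their order in LPS is not resolved. They were followed by Nr1h2 (72.7 ± 6.68), Lpcat3 (40.2 ± 4.85), Abcg1 (22.6 ± 3.12) and Smpdl3a (13.1 ± 1.35 TPM). In None, Soat1 (187 ± 33.5 TPM) came first with no overlap, then Plin2 (92.7 ± 7.47 TPM), and after it Nr1h2 (63.0 ± 5.67), Smpdl3a (60.4 ± 8.59) and Abcg1 (50.6 ± 5.80 TPM). Of these, Nr1h2 overlapped Smpdl3a and Smpdl3a overlapped Abcg1, so their order in None is not resolved. Lpcat3 was at 33.7 ± 2.34 TPM in None, below the lowest library of Abcg1. The lower end was similar in both groups, with Mylip at 2.91 ± 0.425 TPM in LPS and 7.98 ± 0.168 in None, Apoe at 1.45 ± 0.71 in LPS and 4.06 ± 1.02 in None, and Abca1 at 0.777 ± 0.296 in LPS and 0.517 ± 0.032 TPM in None. Nr1h3 and Mylip overlapped in LPS, as did Apoe and Abca1, and Nr1h3 and Apoe overlapped in None. Plin2 alone made up 36.3% to 40.9% of the summed TPM of the 10 genes in LPS, against 15.2% to 20.9% in None, and Smpdl3a 2.22% to 2.60% in LPS, against 11.5% to 12.7% in None.

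**Figure D3:**
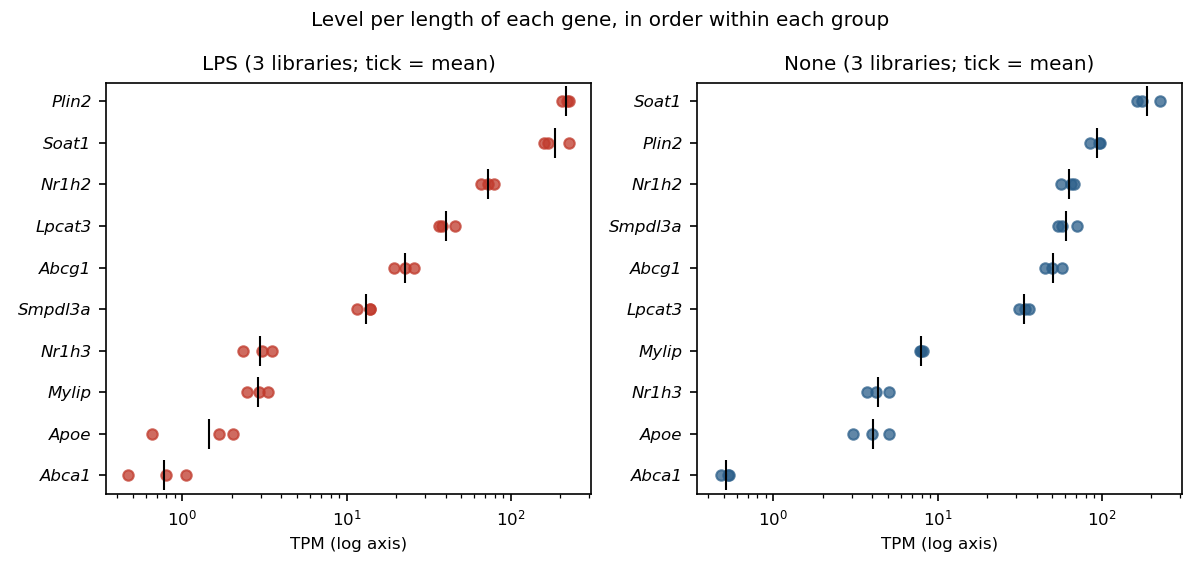
Level per length (TPM, log axis) of the 10 genes in LPS (left) and None (right), each ordered by its mean (tick), with points for the 3 libraries. The means of Plin2 and Soat1 exchange places at the top, though their libraries overlap in LPS. Smpdl3a and Abcg1 stand lower in LPS than in None, and Abca1 has the lowest mean in both, overlapping Apoe in LPS.

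TPM and counts differed for some of the genes. The ratio of expected counts to TPM, set relative to the median gene of each library and to the None mean, tracks the transcript length assigned by the authors' counting. For Abcg1, Mylip and Smpdl3a this ratio stayed within 1.00 to 1.04 in LPS. Soat1 had ratios of 0.833, 0.855 and 0.829 in LPS, against 0.904, 1.03 and 1.07 in None. Its TPM overlapped (225, 169 and 160 in LPS, against 225, 174 and 163 in None). Its CPM overlapped too (362, 272 and 264 in LPS, against 345, 301 and 302 in None). Its unscaled counts did not, at 5095, 3742 and 3656 in LPS, against 6359, 5827 and 5836 in None. The LPS libraries also had lower totals, so the unscaled counts of the groups are not directly comparable. For the scarce transcripts of Abca1 and Apoe single libraries swung widely: LPS replicate 2 had 0.596 for Abca1, and LPS replicate 3 had 0.499 for Apoe against 1.25 in LPS replicate 1. Over 11163 tested genes the highest library exceeded the lowest by a median of 1.08 times in this ratio, and by up to 1.43 times for 90% of genes. It was 2.50 times for Apoe, 1.72 times for Abca1 and 1.29 times for Soat1. In TPM the groups did not overlap for 7 of the 10 genes, where 71.2% of genes with sufficient TPM did not overlap, and the exceptions were Nr1h2, Abca1 and Soat1.

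**Figure D4:**
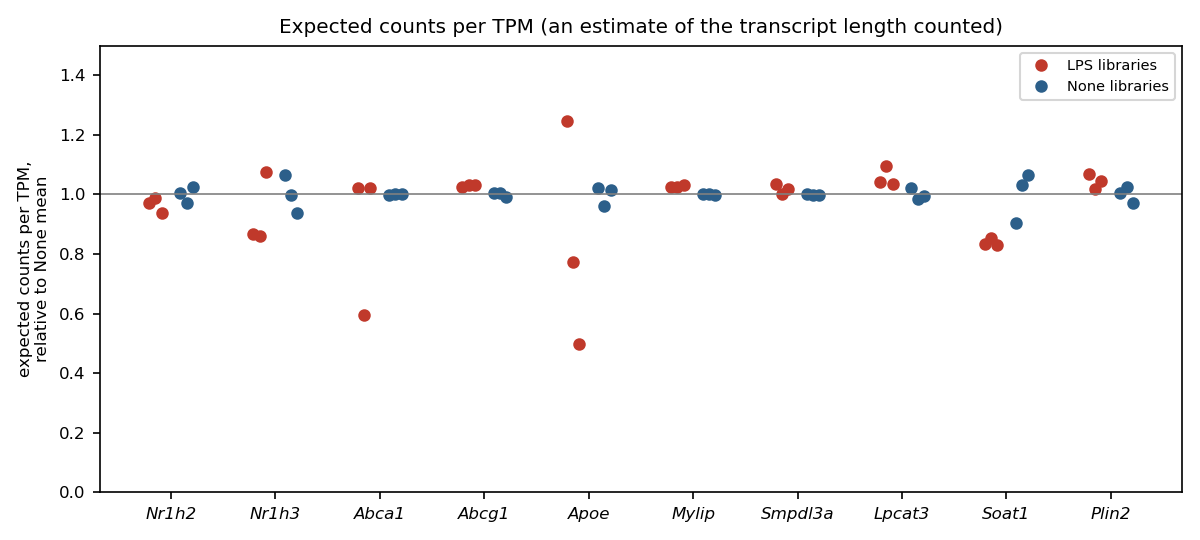
Expected counts per TPM of each gene in each library, relative to the median gene of the library and to the mean of the None libraries (1 on the axis), which tracks the transcript length assigned in counting. Most genes lie close to 1, Soat1 is lower in all LPS libraries, and single LPS libraries depart for Abca1 (0.596) and Apoe (0.499 and 1.25).

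The partner receptors and the enzymes that make or clear LXR ligands were mostly lower in LPS or had too few counts to be tested. Of 10 genes listed 6 were tested, 5 fell and none rose, where 35.1% of all genes tested fell and 34% rose. The counts were the same with library totals and on TPM values, where 6076 of 11916 and 4891 of 11438 genes fell. The median log2 fold change of the 6 genes was -0.72, beside -0.03 over all genes tested. The partner Rxra had 25.7, 24.0 and 28.9 CPM in LPS, against 41.6, 34.0 and 34.7 CPM in None, with a log2 fold change of -0.49, and Rxrb was at -0.35. Cyp27a1, which makes the LXR ligand 27-hydroxycholesterol, had 18.3, 21.6 and 28.3 CPM in LPS, against 47.3, 44.0 and 40.4 CPM in None, a 1.93-fold decrease (adjusted p 4.07e-05). Sult2b1, which attaches sulfate to sterols, fell 3.09-fold to 0.624 ± 0.21 CPM in LPS, against 1.95 ± 0.104 CPM in None. Ch25h, which makes 25-hydroxycholesterol, had 0 counts in every library, where a floor of 3 counts per group allows up to 0.0719 CPM in LPS and 0.0525 CPM in None.

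Coregulators of nuclear receptors were tested for 17 of 18 listed. Of these 8 fell and 3 rose, where 35.1% of all genes tested fell and 34% rose. With library totals 12 fell and 1 rose, where 6076 and 2679 of 11916 genes did. The largest changes on this list were falls of Ncoa5 (-1.67), Nrip1 (-1.24), Gps2 (-1.20), a subunit of the corepressor complex, and the acetyltransferase gene Crebbp (-0.64).

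Other known LXR targets moved in both directions. Of 25 listed, 14 were tested, with a median log2 fold change of -0.0024. Among the 14, 5 rose and 4 fell, where 34% of all genes tested rose and 35.1% fell. With library totals 3 rose and 9 fell, where 2679 and 6076 of 11916 genes did. Srebf1, the lipogenic factor gene that LXR induces, was at 118 ± 7.21 CPM in LPS and 116 ± 5.63 CPM in None and was not called at 0.03, though it was called lower with library totals (-0.23) and on log2(TPM + 1) (-0.32). Pltp, a phospholipid transfer protein, fell 2.11-fold to 114 ± 13.9 CPM in LPS, against 241 ± 46.6 CPM in None. Apoc2, an apolipoprotein gene beside Apoe, had 3, 1 and 0 counts in LPS, against 52, 49 and 52 counts in None, with a log2 fold change of -4.70, which was -5.95 without LPS replicate 1. In the other direction Acly, which supplies acetyl-CoA for lipid synthesis, was at 0.84. Cd5l, a secreted survival factor of macrophages, had 19, 85 and 45 counts in LPS, against 0, 2 and 1 in None, a ratio of scaled counts of 68.0 with an exact 95% interval of 22.8 to 333.5 that covers counting error only. The fitted log2 fold change of Cd5l was 5.90, and it was 5.27 without LPS replicate 2 and 6.71 without None replicate 2.

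Genes that carry sterol between membranes moved in both directions, and how many rose depends on the scaling. Of 14 listed 12 were tested, 9 rose and 3 fell, where 34% of all genes tested were higher, with a median log2 fold change of 0.28. With library totals or TPM values 5 rose and 3 fell. Of all genes, 2679 of 11916 rose and 6076 fell with library totals, and 2672 of 11438 rose and 4891 fell on TPM values. Npc2, the lysosomal protein that binds free cholesterol, had 1419, 991 and 1255 CPM in LPS, against 489, 429 and 433 CPM in None, a 2.71-fold increase (adjusted p 3.64e-07). Its membrane partner Npc1 was at 0.25, a call that was lost with library totals, where the value was -0.014, on log2(TPM + 1), where it was -0.15, and without None replicate 3 (0.18). The transfer protein genes Gramd1a (0.87), Gramd1b (0.71) and Osbpl8 (0.60) rose, and the HDL receptor gene Scarb1 (-0.30) fell.

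**Figure D5:**
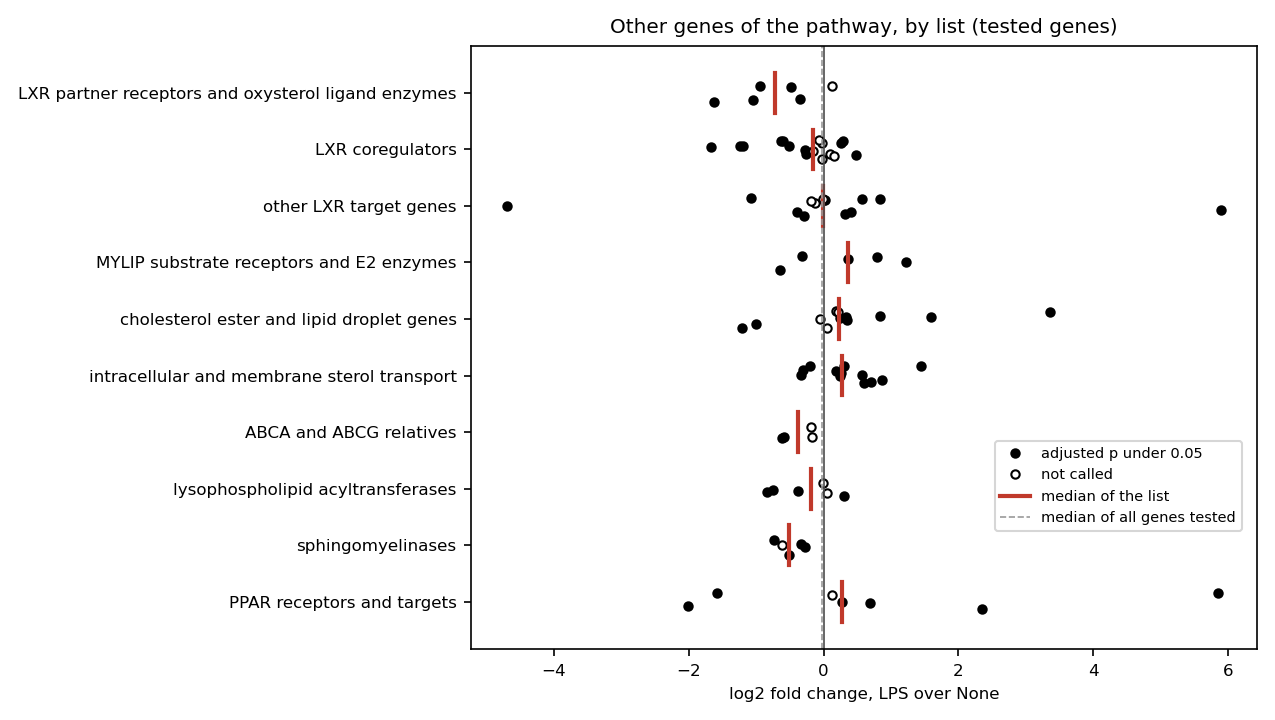
Log2 fold change of LPS over None for the tested genes of each list, with filled circles for an adjusted p under 0.05, a red line at the median of the list and a dashed line at the median of all genes tested (-0.03). The list of partner receptors and ligand enzymes has its median at -0.72 and sterol transport at 0.28.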

How the data were processed

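RNA was sequenced as paired 100-base reads, and reads were filtered with SOAPnuke, per the labels' protocols. STAR 2.7.10a, RSEM 1.3.1 and the build GRCm38 are named in the submitters' processing notes. The deposited expected counts (estimated counts per gene, which need not be whole) and the deposited TPM values cover 50600 genes. Gene coordinates are from the files, with starts counted from 1. Another 12 library columns in both tables match no label and were not used.

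Expected counts were rounded. In edgeR 4.0.16 (R 4.3.3), filterByExpr was set to a minimum count of 10 and a minimum total of 15, which left 11916 genes. Libraries were scaled by TMM, and LPS was tested against None with the quasi-likelihood test (glmQLFit, glmQLFTest, two-sided) and Benjamini-Hochberg adjustment over these genes. The biological coefficient of variation was 8.32%. SEs are the log2 fold change divided by the root of the test's F. Folds are the fitted log2 values on a linear scale. Steps were tested on simulated data in which few genes changed, with random signs. A response as broad as this one, and the shift between scalings, were not simulated. Replicates of a group differed by more than sampling noise. Alternatives were RLE factors, library totals, DESeq2 1.42.0, other filters, limma 3.58.1 on log2 TPM with pseudocounts of 1 and 0.1, a replicate block and leaving out each library.

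The 10 genes and all lists were chosen with earlier results of these data known. From each list up to 4 called genes with the largest change were named, with partners, ligand enzymes and substrates of the 10 genes. Cd68, S100a8, Vldlr, Ube2d2a, Emg1, Pparg, Ppara and markers at 0 counts were named after their values were seen. Some genes of the lists are not reported here by name.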

Additional observations from a re-analysis of the deposited data

How the results depend on the processing

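Of 148 comparisons of a gene of the set with an alternative setting, 125 kept the direction and the side of the threshold or, for Soat1, stayed uncalled. The call was lost in 21, for Nr1h2, Nr1h3, Abca1 and Lpcat3, and gained in 2, for Soat1, and no called gene of the set changed sign. The count of higher genes in the set was 4, and it was 2 with library totals and 1 in each of the TPM fits (log2(TPM + 1), log2(TPM + 0.1) and log2(TPM + 1) without a filter). The cause of these differences was not tested beyond the shift of all genes by -0.26 with library totals and -0.20 on TPM values. Leaving out single libraries gave 3 to 4 higher and 4 to 5 lower genes of the set, and 7507 to 8103 genes called over all, beside 8232 in the full comparison. The share of higher genes among all called was 49.2%, 30.6% with library totals and 35.3% on log2(TPM + 1). Srebf1, not called at 0.03, was -0.23 with library totals, -0.32 on log2(TPM + 1), -0.33 on log2(TPM + 0.1) and -0.32 without the TPM filter. Npc1, called at 0.25, was -0.014, -0.15, -0.15 and -0.15 in those settings, in the same order. The Nr1h3 share differed by -2.47 points, by -2.68 points on CPM, and by -3.02 to -2.05 points without single libraries. The samples share replicate numbers, but same-numbered libraries did not deviate together (correlations of 0.08, -0.02 and 0.01), and not every library correlated best with its own number. With a replicate block 8362 genes were called, 4 of the set higher and 5 lower. Pairing by replicate number cannot change the mean difference of the Nr1h3 share. By arithmetic it equals the difference of the group means (-2.47 points), so it is no check of that value. Depth limits Apoe, Nr1h3 and Abca1, which had at most 118 counts in a library.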

Other observations

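Genes of the related PPAR receptors, which sense fatty acids, were listed because Plin2 is also one of their known targets. Of 11 listed 7 were tested, 4 rose and 2 fell, where 34% of all genes tested rose and 35.1% fell. With library totals or TPM values, 3 rose and 2 fell. Among all genes, 2679 of 11916 rose and 6076 fell with library totals, and 2672 of 11438 rose and 4891 fell on TPM values. Cd36, a scavenger receptor for oxidized lipoproteins, had 45.1, 28.5 and 24.8 CPM in LPS, against 0.543, 0.620 and 0.517 CPM in None, a 57.8-fold increase (adjusted p 3.43e-09). Fabp5, a fatty acid carrier, rose to 368 ± 54.1 CPM in LPS, against 72.3 ± 21.5 CPM in None. Cpt1a, which admits fatty acids to mitochondria for oxidation, had 34.6, 30.5 and 29.4 CPM in LPS, against 140, 121 and 121 CPM in None, a 4.05-fold decrease (adjusted p 1.38e-09). Angptl4 fell as well (-1.58). Pparg had 1 count in LPS and 1 count in None, and Ppara had none.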
